A study of Mus musculus with 6 samples.

Results

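Cytochrome c oxidase, or complex IV, is the last enzyme of the mitochondrial respiratory chain. The genes described here are 10 nuclear genes for its small subunits that exist as alternative forms: Cox4i1, Cox4i2, Cox6a1, Cox6a2, Cox6b1, Cox7a1, Cox7a2, Cox7a2l, Cox8a and Cox8b. The members were picked by name, as the ubiquitous forms and the forms typical of muscle, brown fat or other tissues, and no measured value enters the rule. They were, however, chosen with earlier results of these data known. All 10 were found among the 24415 gene IDs of the count table, and all 10 passed the filter on low counts that left 15994 genes for testing.

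Total RNA of the inguinal white fat depot, which lies under the skin, was read by RNA-seq in 6 C57BL/6 mice at an age of 12 weeks. Of these, 3 were labelled WT and 3 were labelled Hsp20 KO, with 1 library each, under standard housing and without fasting. The gene for Hsp20, a small heat shock protein, is Hspb6; the sources used here do not state the knockout allele, the cells it acts in or the sex of the mice. The comparison asks how the genes differ in this depot between the labelled genotypes.

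The catalytic core of complex IV is encoded by mitochondrial DNA, and nuclear subunits surround it and tune its activity. Subunits VIa, VIIa and VIII each have a ubiquitous or liver-type form (Cox6a1, Cox7a2, Cox8a) and a heart and skeletal muscle form (Cox6a2, Cox7a1, Cox8b). Cox7a1 and Cox8b are also high in brown adipocytes and are used as markers of thermogenic fat, while Cox4i2 is an oxygen-responsive form of subunit IV known from lung and from pericytes, the cells that wrap small vessels.

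The libraries held 14078936 to 32648746 counts each, the fewest in the one labelled Hsp20 KO replicate 3. Hspb6 stood at 12.6, 9.43 and 8.95 CPM (counts scaled to a common library size with TMM factors) in WT replicates 1 to 3. It stood at 8.86, 1.51 and 3.94 CPM in the libraries labelled Hsp20 KO replicates 1 to 3, so the first of these kept a level close to WT: on a scale from 0 at the WT mean to 1 at the mean of the other two, it was at 0.194. Hspb6 did not pass the test between the groups (log2 change -1.08 ± 0.51, edgeR quasi-likelihood adjusted p = 0.227). For that reason the second group is called knockout-labelled throughout. Among called genes within 1 Mb of Hspb6, Sbsn and Ffar1 had the lowest adjusted p. Sbsn stood at 10.2, 9.57 and 11.2 CPM in the libraries labelled Hsp20 KO replicates 1 to 3, against 52.7 to 64.3 CPM in WT. Ffar1 stood at 0.108, 0.0458 and 0 CPM against 3.3 to 4.39 CPM. In both genes the library labelled replicate 1 lay with its group. Picking genes by adjusted p favours those whose libraries lie with their group, so this adds no separate result on that library. The cause of its Hspb6 level was not tested. Summed over 10 adipocyte markers the libraries held between 15456 and 22393 CPM. WT replicate 1 stood apart in 24 skeletal muscle markers, at 1232 CPM against 97.6 to 196 in the other libraries. Counts and values that change most without it or without the library labelled Hsp20 KO replicate 1 are also given without them.

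The upstream sequences of the 2 pairs with the largest changes are shown first, because the tissue-type and ubiquitous forms differ in CpG content there. RefSeq promoter windows on GRCm38.p6 were matched by symbol for 7 of the 10 genes, and Cox4i1, Cox4i2 and Cox6a2 are not shown. Each line gives the 250 bases before the transcription start, 5′ to 3′ on the strand of the gene, with CpG dinucleotides in capitals. The windows lie at chr7:30183921-30184170 (Cox7a1, plus strand), chr9:79759854-79760103 (Cox7a2, minus strand), chr7:140900447-140900696 (Cox8b, minus strand) and chr19:7217617-7217866 (Cox8a, minus strand). The RefSeq start of Cox7a2 lies inside the longer gene span of the GENCODE annotation.
Cox7a1: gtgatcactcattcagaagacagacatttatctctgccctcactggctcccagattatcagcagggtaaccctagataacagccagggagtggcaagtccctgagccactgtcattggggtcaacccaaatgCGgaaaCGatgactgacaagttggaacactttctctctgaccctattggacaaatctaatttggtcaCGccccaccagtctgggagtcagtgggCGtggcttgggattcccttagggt
Cox7a2: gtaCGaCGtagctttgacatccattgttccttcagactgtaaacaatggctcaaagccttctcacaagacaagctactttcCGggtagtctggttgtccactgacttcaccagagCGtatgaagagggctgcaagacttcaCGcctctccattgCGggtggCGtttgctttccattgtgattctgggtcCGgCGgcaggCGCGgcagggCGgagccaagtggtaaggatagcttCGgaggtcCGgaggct
Cox8b: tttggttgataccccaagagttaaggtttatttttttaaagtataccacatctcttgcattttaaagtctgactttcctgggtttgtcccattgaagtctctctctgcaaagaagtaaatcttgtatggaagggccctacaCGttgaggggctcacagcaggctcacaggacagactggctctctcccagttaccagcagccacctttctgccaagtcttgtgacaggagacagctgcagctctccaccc
Cox8a: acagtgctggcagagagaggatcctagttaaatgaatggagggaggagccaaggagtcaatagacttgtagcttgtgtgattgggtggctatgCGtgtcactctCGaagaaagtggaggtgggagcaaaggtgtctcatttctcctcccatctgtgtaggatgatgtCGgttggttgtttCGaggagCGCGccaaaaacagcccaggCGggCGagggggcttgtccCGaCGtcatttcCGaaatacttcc

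The Cox7a1 window held 4 CpG dinucleotides and the Cox8b window 1. The windows of the ubiquitous forms held more: 14 for Cox7a2, 11 for Cox8a, 26 for Cox6a1, 14 for Cox6b1 and 13 for Cox7a2l. Over all 32851 promoter windows the median was 6, and 18.8% of them held as few CpG as Cox8b, 44.4% as few as Cox7a1 and 91.4% as few as Cox6a1 or fewer. The ratio of observed to expected CpG was 0.24 for Cox7a1 and 0.07 for Cox8b, against 0.68 to 1.06 for the ubiquitous forms. This is a description of 7 windows.

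Motifs were searched on both strands of the same 250 bases. The ETS core CCGGAAG matched upstream of Cox6a1 and Cox6b1, as in 6.91% of all windows, and the NRF1 element (GCGCA, any 1 base, GCGC) matched at 2 places upstream of Cox6a1, as in 3.74%. The nuclear receptor core AGGTCA (14% of windows), the element of estrogen-related receptors TCAAGGTCA, which contains that core (0.387%), and the MEF2-type element (CTA, any 4 bases, TAG; 3.2%) had no match in the 7 windows.

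Of the 10 isoform genes 5 rose in the knockout-labelled libraries and 0 fell at an edgeR quasi-likelihood adjusted p under 0.05. Over all tested genes 4.23% were called higher and 3.42% lower. Cox7a1 and Cox8b had the largest changes, 7.33-fold and 2.78-fold. The ubiquitous forms Cox6a1, Cox6b1 and Cox8a rose between 1.46-fold and 1.5-fold. Cox4i1, Cox4i2, Cox7a2, Cox7a2l and Cox6a2 did not pass the test. The median log2 change of the 10 genes was 0.56, against 0.00061 over all tested genes. For 9 of the 10 genes, all but Cox6a2, every knockout-labelled library lay above every WT library. This held for 16.9% of all tested genes, and the opposite order for 15.6%. The library labelled Hsp20 KO replicate 1 was the lowest of its group for all 10. In bulk tissue a change in the number of cells of a type and a change in RNA per cell cannot be told apart.

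These calls depended on single libraries. Leaving out WT replicate 2 or WT replicate 3 left 0 of the 10 called by edgeR. In each case 8 had an unadjusted p under 0.05, and all 8 of these were higher. The number called was 1 without WT replicate 1 or without the library labelled Hsp20 KO replicate 2 (Cox7a1 in both cases), and 2 without replicate 3 of that label (Cox6b1 and Cox7a1). It was 8 without the library labelled Hsp20 KO replicate 1, and 7 when that library and WT replicate 1 were both left out. The median log2 change over the 10 genes stayed between 0.47 and 0.67 in these fits. Calls over all genes moved too, which also applies to the lists below. They were 676 higher and 547 lower of 15994 with all 6 libraries. Without WT replicate 2 they were 79 and 58 of 16179, and without WT replicate 3 75 and 53 of 16159. Without the library labelled Hsp20 KO replicate 1 they were 941 and 730 of 16167. Without WT replicate 1 they were 325 and 329 of 16271. Without the library labelled Hsp20 KO replicate 2 they were 325 and 287 of 16259, and without replicate 3 of that label 327 and 266 of 16285. With WT replicate 1 and the library labelled Hsp20 KO replicate 1 both left out they were 673 and 650 of 16009. The share of all genes at an unadjusted p under 0.05 is not given here.

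**Figure D1:**
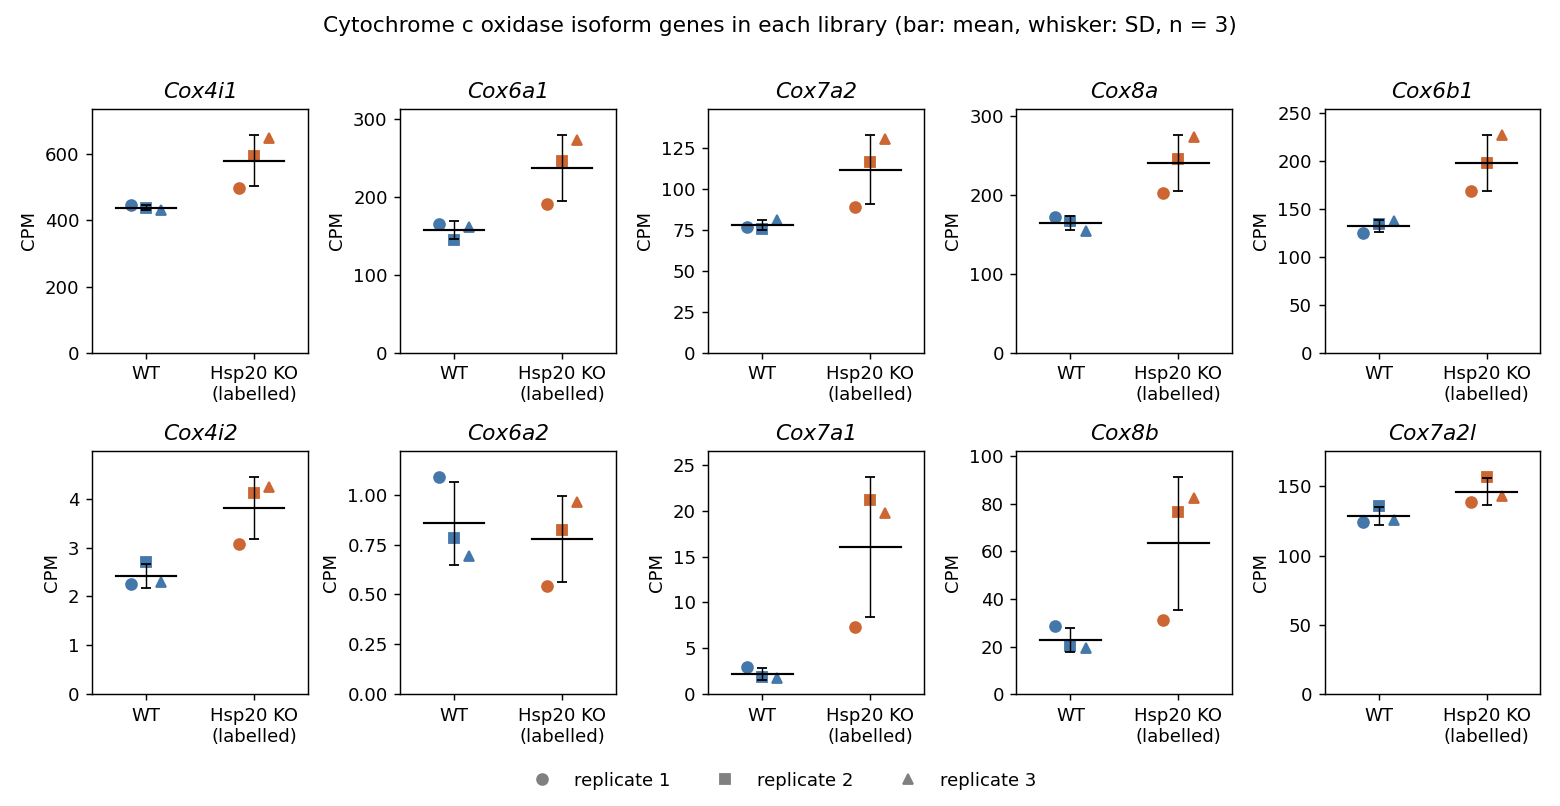
Level of each isoform gene in CPM (vertical axes start at 0) in the 3 WT and the 3 knockout-labelled libraries. Points are libraries, with 1 shape per replicate number, bars are means and whiskers SD. In each panel except that of Cox6a2 the knockout-labelled points lie above the WT points, and the library labelled replicate 1 is the lowest of its group.

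Cox7a1 encodes the heart and muscle form of subunit VIIa (gene ID 12865, chromosome 7, 30184171 to 30186030, plus strand, GRCm38 as for all positions here, with 4 exons in its longest coding transcript). It stood at 2.95, 1.83 and 1.78 CPM in WT replicates 1 to 3 and at 7.3, 21.2 and 19.7 CPM in the libraries labelled Hsp20 KO replicates 1 to 3. Every knockout-labelled value lay above the highest WT value, that of replicate 1. Means were 2.19 ± 0.661 CPM for WT against 16.0 ± 7.61 CPM (SD, n = 3 each). The log2 change was 2.87 ± 0.42 SE (edgeR adjusted p = 0.0126). It was 3.48 without WT replicate 1 and the library labelled Hsp20 KO replicate 1 (adjusted p = 0.00162), and without WT replicate 2 or 3 it was 2.76 or 2.74 and did not pass (adjusted p = 0.0675 and 0.0723).

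Cox7a2, the ubiquitous form of the same subunit (gene ID 12866, chromosome 9, 79755241 to 79771422, minus strand), stood at 76.6, 75.7 and 81.2 CPM in WT and at 88.8, 116 and 130 CPM in the knockout-labelled libraries. The groups did not overlap, and the log2 change of 0.52 ± 0.13 missed the threshold (edgeR adjusted p = 0.0578). It passed with upper quartile normalization (0.0475), without a filter on low counts (0.0443) and with DESeq2 (0.00756). It also passed without the library labelled Hsp20 KO replicate 1 (0.00643), and with WT replicate 1 left out too (0.0202).

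Cox7a2l encodes a relative of these subunits whose full-length form tethers complex IV to complex III in respiratory supercomplexes, and of which C57BL/6 mice carry a shortened form (gene ID 20463, chromosome 17, 83501917 to 83514333, minus strand). Its levels were 124, 136 and 126 CPM in WT and 139, 157 and 143 CPM in the knockout-labelled libraries. The gap between the groups was small, and the log2 change was 0.19 ± 0.08 (edgeR adjusted p = 0.196). A stretch of 201 bases of its transcript is identical to the pseudogene transcript Gm6969, so its reads may be shared and its value is uncertain.

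Cox8b encodes the heart and muscle form of subunit VIII, which is also used as a marker of brown fat (gene ID 12869, chromosome 7, 140898942 to 140900446, minus strand, 2 exons). It stood at 28.5, 20.1 and 19.6 CPM in WT and at 31.3, 76.6 and 82.2 CPM in the knockout-labelled libraries. The library labelled Hsp20 KO replicate 1 lay just above WT replicate 1, and the other two lay far above every WT library. The mean went from 22.7 ± 4.97 to 63.4 ± 27.9 CPM, and the log2 change was 1.48 ± 0.34 (adjusted p = 0.044, edgeR). The call was lost with limma-voom (adjusted p = 0.0626) and without any single library other than the one labelled Hsp20 KO replicate 1 (adjusted p from 0.0718 to 0.162). Without that library the log2 change was 1.81 (0.00154), and with WT replicate 1 also left out it was 1.98 (0.00176).

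Cox8a, the ubiquitous form of subunit VIII (gene ID 12868, chromosome 19, 7215158 to 7217616, minus strand), stood at 172, 167 and 154 CPM in WT and at 203, 245 and 273 CPM in the knockout-labelled libraries. It rose with a log2 change of 0.55 ± 0.12 (edgeR adjusted p = 0.037). Without any single library other than the one labelled Hsp20 KO replicate 1 it no longer passed (adjusted p from 0.0698 to 0.156). Without that library the log2 change was 0.66 (0.00823), and 0.67 with WT replicate 1 also left out (0.0206).

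Cox6a1, the ubiquitous form of subunit VIa (gene ID 12861, chromosome 5, 115345652 to 115348958, minus strand), stood at 166, 145 and 162 CPM in WT and at 191, 247 and 274 CPM in the knockout-labelled libraries. Its log2 change was 0.59 ± 0.14 (edgeR adjusted p = 0.0436). The same leave-one-out fits ended its call (adjusted p from 0.0812 to 0.15). Its log2 change was 0.72 without the library labelled Hsp20 KO replicate 1 (0.00647) and 0.74 without WT replicate 1 as well (0.0162). A transcript of AC148174.2 is 92.7% identical to its own over 496 bases, so some reads may be shared.

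Cox6a2, the heart and muscle form of subunit VIa (gene ID 12862, chromosome 7, 128205435 to 128206366, minus strand), was near the limit of detection, with 28, 24 and 23 counts in WT and 15, 18 and 13 counts in the knockout-labelled libraries. As CPM these were 1.09, 0.783 and 0.695 against 0.542, 0.824 and 0.965, and the groups overlapped. The log2 change was -0.17 ± 0.32 (edgeR adjusted p = 0.773). Its sign turned without WT replicate 1 (0.018), without the library labelled Hsp20 KO replicate 1 (0.064) and without both (0.24). Cox6a2 lies inside the span of Itgad on the opposite strand, and without a stated strand setting their reads cannot be told apart.

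Cox4i1, the ubiquitous form of subunit IV (gene ID 12857, chromosome 8, 120668225 to 120674209, plus strand), stood at 446, 438 and 432 CPM in WT and at 499, 595 and 650 CPM in the knockout-labelled libraries. The log2 change of 0.41 ± 0.12 did not pass (edgeR adjusted p = 0.0824). It passed without the library labelled Hsp20 KO replicate 1 (0.022), with WT replicate 1 left out too (0.0474) and with DESeq2 (0.00696). A stretch of 154 bases of its transcript is also part of a transcript of the neighbouring gene Emc8.

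Cox4i2, the oxygen-responsive form of subunit IV (gene ID 84682, chromosome 2, 152753916 to 152765039, plus strand), had 58, 83 and 76 counts in WT and 85, 90 and 57 in the knockout-labelled libraries. As CPM these were 2.25, 2.71 and 2.3 against 3.07, 4.12 and 4.23. The log2 change of 0.64 ± 0.19 did not pass (edgeR adjusted p = 0.0811), and it passed without the library labelled Hsp20 KO replicate 1 (0.79, adjusted p = 0.0424). Of 8 pericyte markers 2 rose, the chondroitin sulfate proteoglycan Cspg4 (log2 change 1.27 ± 0.17, edgeR adjusted p = 0.00926) and the potassium channel Kcnj8 (0.7 ± 0.12, adjusted p = 0.0205), and 0 fell. Among all tested genes 4.23% rose and 3.42% fell. When WT replicate 2 or WT replicate 3 was dropped, 0 of the 8 passed in edgeR, with 2 higher at an unadjusted p under 0.05. When WT replicate 1 or the library labelled Hsp20 KO replicate 3 was dropped, 1 passed. Summed, the 8 gave 400 to 468 CPM in WT against 509 to 647 CPM. Most of that gap came from Cspg4, with a mean of 80.0 CPM in WT against 193 CPM. Of the other abundant markers, Notch3, Pdgfrb and Rgs5 had log2 changes of 0.15, -0.12 and 0.029 and did not pass. In all, 6 of the 8 had a positive log2 change, and the part of these cells in the Cox4i2 values was not tested.

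Cox6b1 encodes the ubiquitous form of subunit VIb, which sits on the side of complex IV where cytochrome c docks (gene ID 110323, chromosome 7, 30616971 to 30626114, minus strand). It stood at 125, 134 and 138 CPM in WT and at 169, 198 and 227 CPM in the knockout-labelled libraries, and the log2 change was 0.58 ± 0.11 (edgeR adjusted p = 0.0286). The call was lost without any 1 WT library or without the library labelled Hsp20 KO replicate 2 (adjusted p from 0.0607 to 0.109). The log2 change was 0.68 without the one labelled replicate 1 (0.00763) and 0.62 without WT replicate 1 too (0.0225). Its testis form Cox6b2 had 23 to 45 counts in a library and did not pass (log2 change 0.63 ± 0.32, adjusted p = 0.269). Of the other testis forms, Cox8c had 0 counts in each library and Cox7b2 between 0 and 4.

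To compare levels between genes, CPM was divided by the length of the longest coding transcript in kilobases. On this scale WT tissue held 573 ± 9.38 CPM per kb of Cox4i1, followed by Cox8a (299 ± 17.2), Cox6a1 (276 ± 19.1), Cox6b1 (214 ± 11.1), Cox7a2 (118 ± 4.44), Cox7a2l (114 ± 5.48), Cox8b (63.1 ± 13.8), Cox7a1 (4.51 ± 1.36), Cox4i2 (3.3 ± 0.343) and Cox6a2 (1.26 ± 0.302). In this order Cox8a and Cox6a1, Cox7a2 and Cox7a2l, and Cox7a1 and Cox4i2 overlapped in their libraries, and the other neighbours did not. In the knockout-labelled libraries the order changed at 1 place: Cox8b (176 ± 77.5 CPM per kb) lay above Cox7a2 (169 ± 31.7) and Cox7a2l (130 ± 8.43), and the libraries of these 3 genes overlapped, as did those of Cox8a, Cox6a1 and Cox6b1 from one to the next. Cox8b was thus the muscle-type form with the highest level per length in both groups, and Cox7a1 reached 33.1 ± 15.7.

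How the balance within a pair differed was measured as the log2 ratio of the 2 isoforms in each library, which does not depend on library depth. With 3 libraries against 3 the exact two-sided permutation test cannot go below p = 0.1, so no pair could pass 0.05, and 4 pairs were compared. In the COX7A pair, Cox7a1 made up 4.97%, 3.17% and 2.9% of the level per length in WT and 10%, 19.9% and 17.1% in the knockout-labelled libraries. The groups did not overlap. The log2 ratio of Cox7a1 to Cox7a2 rose from -5.18 ± 0.43 to -2.92 ± 0.6 (SD, n = 3 each), a difference of 2.26 that was above the spread of both groups (exact permutation p = 0.1, adjusted over the 4 pairs 0.2).

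In the COX8 pair, Cox8b made up 20.2%, 15.5% and 16.3% in WT and 19.1%, 32.3% and 31.5% in the knockout-labelled libraries. The library labelled Hsp20 KO replicate 1 lay within the WT range, so the groups overlapped. The log2 ratio differed by 0.84 (exact permutation p = 0.2, n = 3 each, adjusted 0.2), and by 1.31 without that library and WT replicate 1.

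In the COX6A pair, Cox6a2 made up 0.547%, 0.45% and 0.359% in WT and 0.238%, 0.279% and 0.295% in the knockout-labelled libraries. All 3 knockout-labelled values were below the WT values, and the log2 ratio went from -7.52 ± 0.3 to -8.23 ± 0.16, a difference of -0.71 (exact permutation p = 0.1, n = 3 each, adjusted 0.2). It was -0.47 without WT replicate 1 and the library labelled Hsp20 KO replicate 1. Cox6a2 alone had 13 to 28 counts in a library and overlapping CPM, with a log2 change of -0.17 ± 0.32. Cox6a1 had one of 0.59 ± 0.14, so the lower share is not a measured fall of Cox6a2. In the COX4 pair, Cox4i2 made up 0.573 ± 0.0616% in WT and 0.677 ± 0.0395% in the other group, with a difference in log2 ratio of 0.25 and overlapping groups (exact permutation p = 0.2, n = 3 each, adjusted 0.2).

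**Figure D2:**
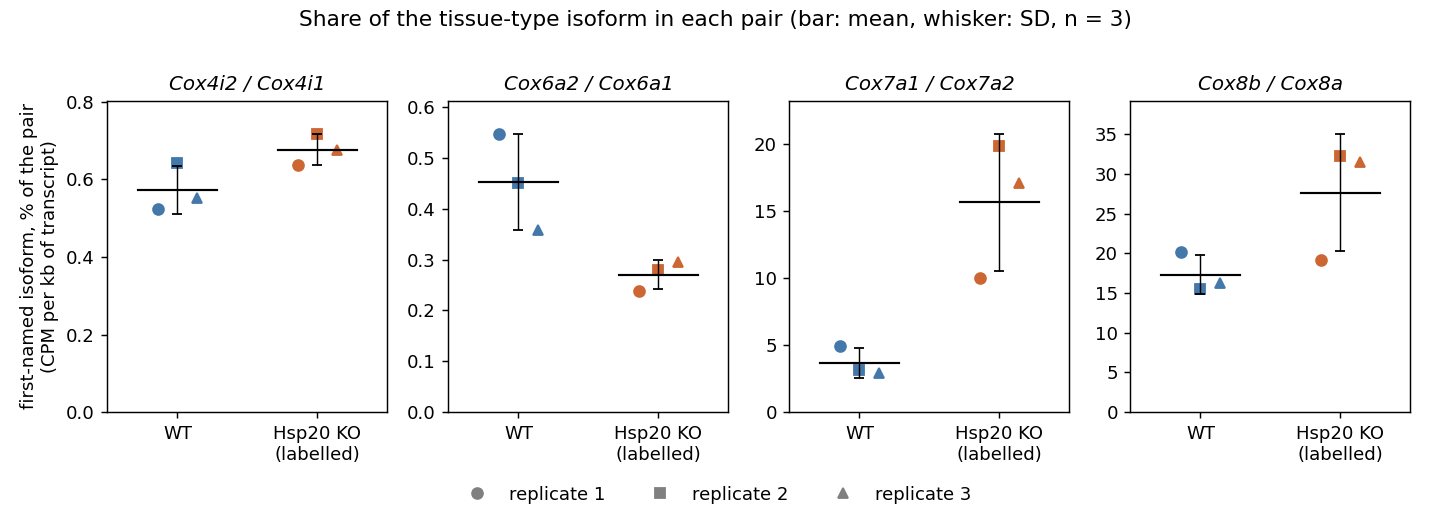
Share of the first-named, tissue-type isoform in each pair, as a percentage of the summed CPM per kb of both (vertical axes start at 0), by library. Points are libraries, bars are means and whiskers SD. Cox7a1 reached 10% to 19.9% in the knockout-labelled libraries against at most 4.97% in WT, while Cox6a2 stayed under 0.6% in all 6 libraries.

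Summed over both forms, each subunit position had more transcript per length in the knockout-labelled libraries. The COX8 position went from 362 ± 28.9 to 613 ± 140 CPM per kb, COX7A (Cox7a1 and Cox7a2) from 123 ± 4.09 to 202 ± 46.4, COX6A from 278 ± 19.2 to 417 ± 74.2 and COX4 from 577 ± 9.31 to 765 ± 100. The groups did not overlap at any of the 4 positions (exact permutation p = 0.1 each, n = 3 each, the smallest this design allows). Among single genes the same order held for 16.9% of all tested genes. The ubiquitous form made up most of each sum and had no overlap itself, so the sums add no separate result.

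Skeletal muscle fibres and brown adipocytes both express the muscle-type forms, so markers of both were read in each library. Of 24 skeletal muscle markers 20 were tested, 0 passed in either direction by edgeR, with 12 lower at an unadjusted p under 0.05. DESeq2 called 2 lower and limma-voom 0. The median log2 change was -3.19, and -0.73 without WT replicate 1. The most abundant were the muscle actin Acta1 (log2 change -1.04, adjusted p = 0.153) and the fast myosin Myh4 (-4.78, adjusted p = 0.158). Myh4 stood at 294 CPM in WT replicate 1 and at 0.145 to 16.6 CPM in the other 5 libraries. WT replicate 1 also had the highest WT level of 6 of the 10 isoform genes: the muscle-type Cox7a1, Cox8b and Cox6a2 and the ubiquitous Cox4i1, Cox6a1 and Cox8a. In the knockout-labelled libraries, where Cox7a1 and Cox8b were higher, the muscle markers summed to 97.6, 122 and 167 CPM, against 134 and 196 CPM in WT replicates 2 and 3. The part of muscle RNA in the WT levels was not tested. The log2 changes of Cox7a1 and Cox8b were larger without WT replicate 1 (3.13 and 1.66).

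Of 13 brown adipocyte markers 9 rose and 0 fell, beside 4.23% and 3.42% of all tested genes. The median log2 change of the 13 was 2.53. The uncoupling protein Ucp1 had 2.64, 1.76 and 1.06 CPM in WT and 19.1, 165 and 308 CPM in the knockout-labelled libraries (log2 change 6.51 ± 1.03, edgeR adjusted p = 0.016). The lipid droplet protein Cidea rose 5.79-fold (edgeR adjusted p = 0.00638) and Cpt1b, which brings fatty acids into mitochondria, 9.19-fold (0.0112). Pdk4, a kinase that restrains pyruvate oxidation, had a log2 change of 0.95 ± 0.32 and did not pass (0.115). Summed, the 13 markers gave 311, 246 and 240 CPM in WT against 434, 1223 and 1395 CPM. As for Cox7a1 and Cox8b, the library labelled Hsp20 KO replicate 1 was the lowest of its group. The number of brown markers called was 6 without WT replicate 1, 3 without either of the other WT libraries and 5 without the one labelled Hsp20 KO replicate 2 or 3. It was 13 without the library labelled Hsp20 KO replicate 1, with WT replicate 1 kept or left out. The part of brown-like adipocytes in the Cox7a1 and Cox8b values was not tested.

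Markers of other cells in the depot were read in the same way. Among 10 adipocyte markers edgeR called 0, while 4 had an unadjusted p under 0.05, 2 in each direction, DESeq2 called 1 each way and limma-voom 0. Among 8 endothelial markers edgeR, DESeq2 and limma-voom called 0, while 3 had an unadjusted p under 0.05 by edgeR, 1 of them higher. Among 8 macrophage markers edgeR called 0, with 4 lower at an unadjusted p under 0.05, DESeq2 called 2 lower and limma-voom 0. Without the library labelled Hsp20 KO replicate 1, edgeR called 2 adipocyte and 3 macrophage markers lower, and without replicate 2 of that label 1 macrophage marker lower. Among 9 lymphocyte markers all 3 tools called 0, with 1 higher at an unadjusted p under 0.05 by edgeR. That list moved with single libraries: edgeR called 4 of its markers lower without the library labelled Hsp20 KO replicate 2 and 1 higher without the one labelled replicate 3.

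**Figure D3:**
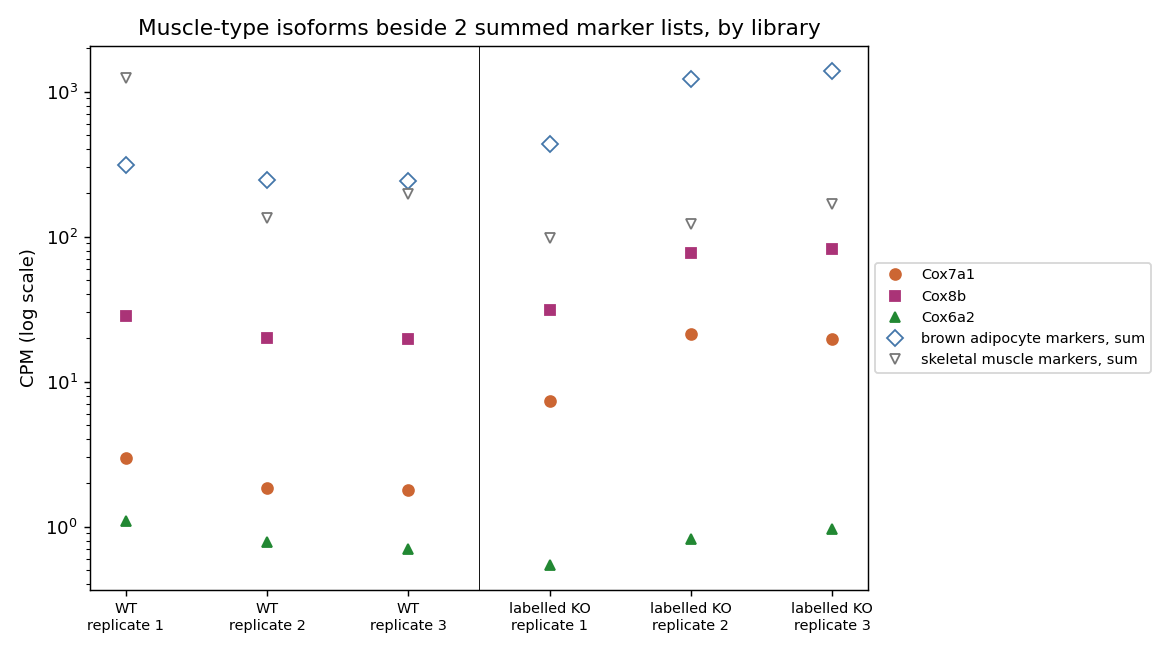
Levels of the 3 muscle-type isoforms and the summed levels of 13 brown adipocyte markers and 24 skeletal muscle markers in each library, in CPM on a log axis. The muscle sum is 1232 CPM in WT replicate 1 and at most 196 CPM elsewhere, and Cox7a1 and Cox8b are highest where the brown sum is 1223 and 1395 CPM.

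Among the 14672 genes with a mean of at least 1 CPM, the isoform genes left out, those with the profile most like Cox7a1 over the 6 libraries were Aldoart1, the glycolytic aldolase Aldoa, Cpn2, Sorcs2 and Mxi1 (Pearson r of log2 CPM from 0.9971 to 0.9992). Aldoart1 is a near copy of Aldoa and can share its reads. Those most like Cox8b were Idh3g, a subunit of the citric acid cycle enzyme isocitrate dehydrogenase, the mitochondrial deacetylase Sirt3, Dhcr7, Kcnn1 and Vwa8 (0.9956 to 0.9983). Cox7a1 and Cox8b themselves correlated at 0.972, and Cox6a2 correlated with the other isoform genes between -0.121 and 0.328. The 6 points share the genotype split and the libraries, so these are descriptions.

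Other subunits of complex IV rose as well. Of 6 other nuclear subunits 5 rose and 0 fell, beside 4.23% and 3.42% of all tested genes. The median log2 change of the 6 was 0.57. Cox5a, which binds a thyroid hormone metabolite, went up from a mean of 75.6 ± 9.6 CPM to one of 137 ± 23.0 (adjusted p = 0.0188 with edgeR), as did Cox5b, the zinc-binding subunit, from 86.2 ± 2.33 to 130 ± 13.8 CPM (0.0151). Cox6c, Cox7b and Ndufa4 rose 1.47-fold, 1.6-fold and 1.47-fold, and Cox7c had a log2 change of 0.38 ± 0.13 (0.122). With either WT replicate 2 or WT replicate 3 left out, edgeR passed 0 of the 6, although 5 and 6 were higher before adjustment (p under 0.05). It passed 2 without WT replicate 1, 3 without the library labelled Hsp20 KO replicate 2 and 2 without replicate 3 of that label. All 6 passed without the one labelled replicate 1, with WT replicate 1 kept or left out. The catalytic subunits encoded by mitochondrial DNA were not analysed here.

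Factors that build complex IV were measured as a further list. For comparison, 4.23% of all tested genes rose and 3.42% fell. Of 26 assembly and copper delivery genes 5 rose and 0 fell, and the median log2 change was 0.27. The genes were Cox18, which inserts a catalytic subunit into the membrane (1.81-fold, edgeR adjusted p = 0.0174), Cox10 and Cox15, which make haem A (1.51-fold and 1.32-fold), the copper chaperone Cox17 (1.31-fold) and Smim20 (1.43-fold), which binds the newly made catalytic core. The most abundant of the 26, Coa5, changed by -0.0015 ± 0.09 in log2 (0.995). Lrpprc, which stabilises mitochondrial transcripts, Higd2a and Surf1 had log2 changes of 0.18, 0.37 and 0.18 and did not pass. The copper carriers Sco1 and Sco2 had log2 changes of -0.04 and 0.15 and did not pass. With WT replicate 2 or WT replicate 3 left out, edgeR passed 0 of the 26, although 9 and 10 were higher before adjustment. It passed 1 without WT replicate 1 or the one labelled Hsp20 KO replicate 2 or 3, 8 without that labelled replicate 1 and 5 when WT replicate 1 was left out as well.

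**Figure D4:**
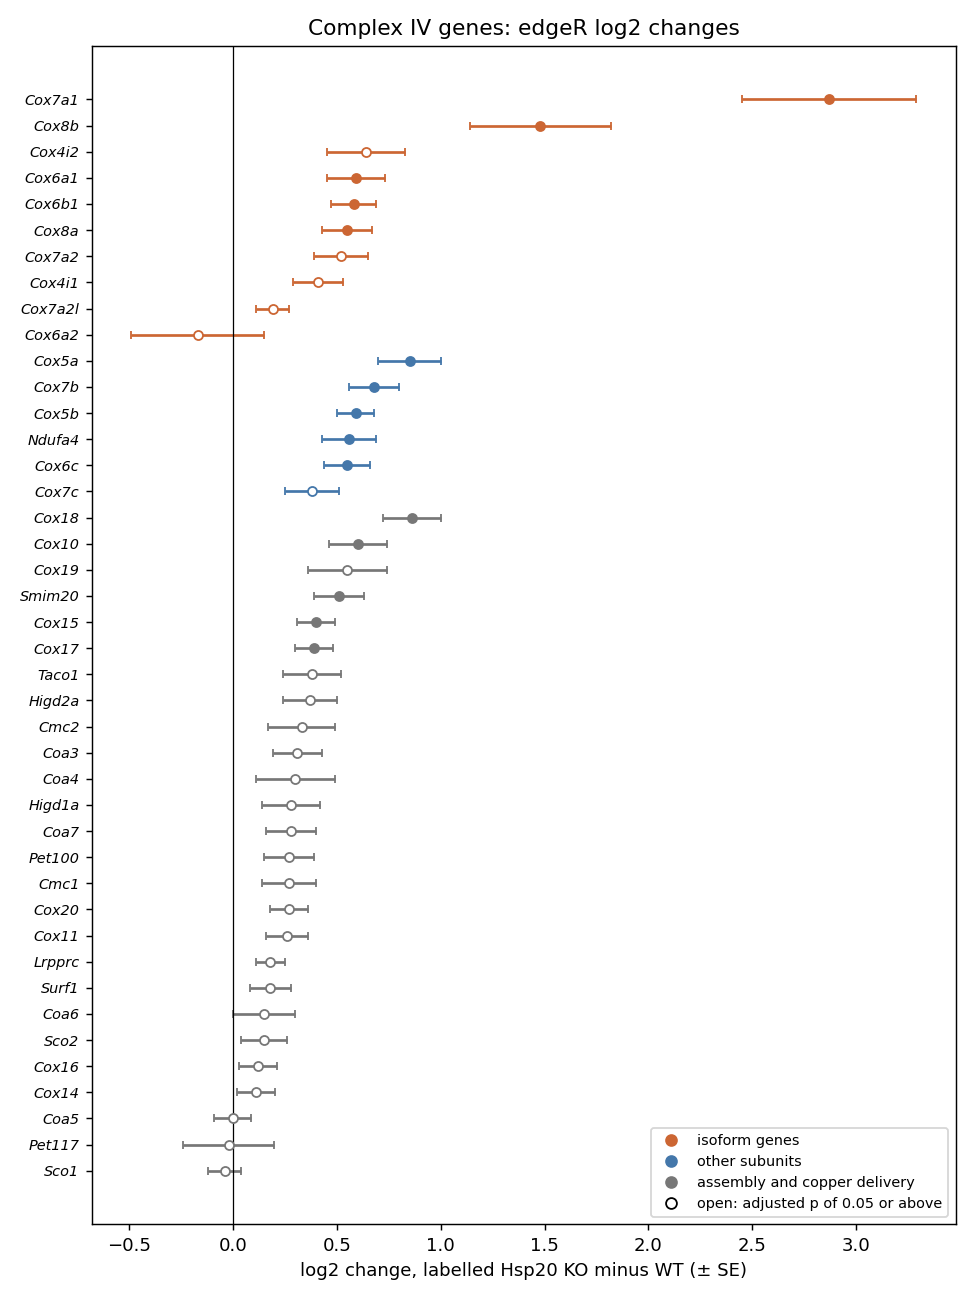
Log2 change (knockout-labelled minus WT, horizontal axis) with its SE from edgeR for the 10 isoform genes, 6 other subunits and 26 assembly genes. Filled points passed an adjusted p under 0.05. Cox7a1 at 2.87 and Cox8b at 1.48 lie to the right of the remaining genes, which lie between -0.17 and 0.86.

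Of 15 regulators of oxidative and oxygen-responsive genes 14 were tested, with a median log2 change of 0.059 and 9 positive changes. Of these 14, 2 rose and 0 fell, beside 4.23% and 3.42% of all tested genes. The 2 that rose were estrogen-related receptors, nuclear receptors that drive genes of oxidative metabolism. Esrra went from 42.8 ± 1.79 to 71.0 ± 8.57 CPM (edgeR adjusted p = 0.0113) and Esrrg from 1.24 ± 0.0348 to 4.98 ± 2.32 CPM (0.0253). Esrrg had 1.2, 1.27 and 1.24 CPM in WT and 2.49, 7.1 and 5.35 CPM in the knockout-labelled libraries, so here too the library labelled replicate 1 was the lowest of its group. The coactivator Ppargc1a did not pass (log2 change 0.016 ± 0.33, edgeR adjusted p = 0.983). It stood at 13.1, 6.59 and 5.77 CPM in WT replicates 1 to 3 and at 6.9, 7.74 and 11.3 CPM in the knockout-labelled libraries. WT replicate 1 was thus the highest of all 6 libraries, and the change of Ppargc1a without it is not given here. Chchd2 and Rbpj, which act on the Cox4i2 promoter, and the hypoxia factor Hif1a had log2 changes of 0.21, -0.23 and -0.056 and did not pass. Leaving out WT replicate 2 or WT replicate 3 left 0 of the 14 past the edgeR threshold, with 3 higher at an unadjusted p under 0.05 each time and, in turn, 2 and 1 lower. Leaving out WT replicate 1, or the library labelled Hsp20 KO replicate 2 or 3, left 1. Leaving out the one labelled replicate 1 left 3, and leaving out WT replicate 1 as well left 4.

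Of the isoform genes 4 lie on chromosome 7 with Hspb6, and 2 of these lie near it. Measured between the lower coordinates of the gene spans, Cox6b1 lies 64 kb from Hspb6 and Cox7a1 at -368 kb, while Cox6a2 and Cox8b lie 97653 and 110346 kb away. Within 1 Mb of Hspb6 66 genes other than Hspb6 were tested, of which 4 rose and 9 fell, 19.7% against 7.65% of all tested genes. Within 10 Mb the share was 12.3%. The genes that rose were Zfp30, Arhgap33, Cox7a1 and Cox6b1, and those that fell were Zfp420, Zfp14, Zfp146, Tbcb, Sbsn, Dmkn, Krtdap, Ffar2 and Ffar1.

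The tested genes beside Cox7a1 and Cox6b1 were read in the same fit. Capns1, a calpain subunit 3 kb away on the same measure, did not pass at -0.087 ± 0.09 in log2 (edgeR adjusted p = 0.606). Gm5113 at -14 kb did not pass at -0.24 ± 0.08 (0.101). Zfp146 at -24 kb and Tbcb, a tubulin folding cofactor at 40 kb, fell, with log2 changes of -0.32 and -0.51 (0.0488 and 0.012). Beside Cox6b1, Upk1a, Rbm42, Zbtb32 and Haus5 did not pass (log2 change 0.25, -0.029, 0.67 and -0.22). Nearness to the targeted locus and the genotype cannot be told apart for Cox7a1 and Cox6b1 with these libraries. Cox8b and the subunits on other chromosomes, among them Cox6a1 and Cox8a, lie outside this region, and an effect of the locus on any member was not tested.

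**Figure D5:**
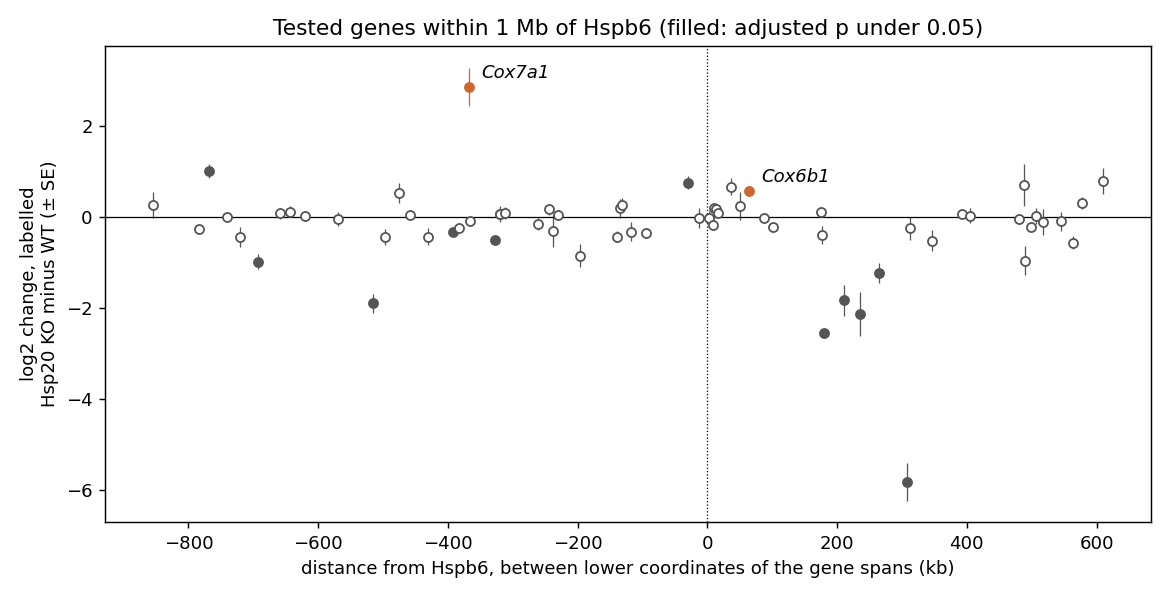
Log2 change (knockout-labelled minus WT) with its SE for the 66 tested genes within 1 Mb of Hspb6, against the distance between lower span coordinates in kb. Filled points passed an edgeR adjusted p under 0.05. Cox7a1 has the largest rise in the window, at 2.87, and Cox6b1 lies at 0.58, while Ffar1 fell by 5.83 on the log2 scale.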

How the data were processed

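Per the submitters' processing notes, bcl2fastq, CASAVA 1.8, TopHat and DESeq were used with mm10 and GRCm38. The sources used here name no read counter, annotation or strand setting. The table the authors deposited holds raw read counts by gene for each mouse. Symbols from RefSeq GRCm38.p6 were found for 24334 of its 24415 gene IDs, and positions, lengths and overlaps came from GENCODE M21.

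Genes were filtered with filterByExpr (minimum count 10, minimum total 15), scaled with TMM and tested for genotype alone with edgeR 4.0.16 (quasi-likelihood, R 4.3.3). P-values were adjusted with the Benjamini-Hochberg method over all 15994 genes, with a threshold of 0.05, and each SE was derived from the F statistic. Isoform ratios had 0.5 added to each count, and shares per length had nothing added. The procedure was tested on simulated data. Transcripts of other genes with at least 90% identity over 100 bases were listed. Settings varied were the size factors of DESeq2, upper quartile scaling, no filter, DESeq2 1.42.0 and limma-voom (limma 3.58.1) as tests, a replicate block and leaving out each library. Leaving out WT replicate 1 and the library labelled Hsp20 KO replicate 1 together was chosen after seeing the data, as were the promoter motifs. The labels do not say more of the mice, so p-values measure the spread between these samples.

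The members and lists were chosen with earlier results of these data known. Named genes were the members, Hspb6, up to 4 genes of highest mean CPM per list, called genes of lists with 5 or fewer calls, called genes within 1 Mb of Hspb6 and the 5 most alike to Cox7a1 and Cox8b. Ppargc1a, Sco1, Sco2 and the genes flanking Cox7a1 and Cox6b1 fall outside this rule and were chosen after their values were seen.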

Additional observations from a re-analysis of the deposited data

How the results depend on the processing

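Over all genes DESeq2 called 1125 higher and 1001 lower against 676 and 547, the replicate block 226 and 169, and leaving out single libraries between 75 and 941 higher and between 53 and 730 lower. With the replicate block 1 isoform gene was higher (Cox6b1), with 2 other subunits, 2 assembly genes and 4 brown adipocyte markers. Limma-voom called 3 assembly genes and 1 regulator, and leaving out WT replicate 1 and the library labelled Hsp20 KO replicate 1 together gave 4 regulators. Leaving out single libraries gave between 0 and 8 isoform genes, 0 and 6 other subunits, 0 and 8 assembly genes, 0 and 3 regulators and 3 and 13 brown markers. The log2 change of Cox6a2 turned to 0.018 without WT replicate 1, 0.064 without the library labelled Hsp20 KO replicate 1 and 0.24 without both (range leaving out single libraries -0.32 to 0.064), and the cause was not tested. The share of genes called near Hspb6 was 12.3% in the 10 Mb window. The log2 change of the other 9 isoform genes stayed positive in all 13 alternatives. Each isoform ratio difference kept its own sign in its alternatives, negative for COX6A and positive for the other pairs. The ratio differences leaving out single libraries ran from 0.19 to 0.33 for COX4, -0.86 to -0.56 for COX6A, 2.02 to 2.6 for COX7A and 0.66 to 1.17 for COX8. The labels name no pairing of the mice. The correlations of same-numbered deviations were -0.038, 0.0917 and -0.0957, and those of differently numbered ones ran from -0.084 to 0.12. With so few libraries these values cannot settle whether mice of the same number were paired. Counts of 13 to 28 limit Cox6a2, and those of 57 to 90 limit Cox4i2.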
